A study of Mus musculus with 8 samples.

Results

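Imprinted genes of early postnatal growth were examined in eyecups of the retinal pigment epithelium (RPE), the pigmented cell layer behind the photoreceptors, from mice at postnatal day 11 (P11). The set held 10 genes picked by name from the imprinted genes of growth, namely Meg3, Rian, Dlk1, H19, Peg3, Mest, Plagl1, Cdkn1c, Grb10 and Nnat. The names were chosen with earlier results of this same comparison known, so the differences between genotypes are given for them as a description, without p-values. Of the 10 genes, 9 had a row among the 31053 gene rows of each count table. Rian had none.

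There were 4 libraries labelled as wild-type littermates (Bbs8+/+) and 4 labelled as knockout (Bbs8-/-), from untreated mice of the C57/Bl6 strain. The knockout was constitutive, and Bbs8 carries the symbol Ttc8 in the annotation. Ttc8 encodes a subunit of the BBSome, a complex that moves cargo in and out of primary cilia. RNA was made from the eyecup left after removal of the cornea, lens, neural retina and optic nerve, so choroid and sclera were sampled along with the RPE. In such bulk samples fewer cells of a type and less RNA per cell cannot be told apart. QuantSeq 3′ mRNA sequencing reads the end of polyadenylated transcripts, and levels are given as CPM, the counts of a gene scaled to a common library total, after trimmed mean of M values (TMM) normalization, which allows comparison of a gene between libraries. Group values are mean ± SD with n = 4 libraries per genotype, and n counts libraries. The methods treat each animal as a biological replicate, but the sex-linked transcripts described next go against a single animal per library.

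An imprinted gene is transcribed mainly from the allele inherited from the mother or mainly from that of the father, under methylation marks set in the germ line. Many imprinted genes regulate growth before and after birth, with paternally expressed genes tending to promote it and maternally expressed genes tending to restrain it. Several of them, including H19, Dlk1, Plagl1, Mest, Peg3, Cdkn1c and Grb10, are known to be co-expressed in perinatal tissues and to be silenced as postnatal growth slows. Counts of this kind do not separate the parental alleles, so the parent of origin given for each gene is background.

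Each of the 8 libraries held transcripts of both sexes. Xist, the RNA of the inactive X chromosome that marks female cells, ranged from 640.5 to 746 CPM over the Bbs8+/+ libraries and from 570 to 625 CPM over those of Bbs8-/-. From the Y chromosome, Eif2s3y, Kdm5d, Ddx3y and Uty, which mark male cells, were all counted in all 8, and summed to 59.0 to 64.9 CPM (Bbs8+/+) against 108 to 119.5 CPM (Bbs8-/-). A library from a single mouse would not hold both, so the reads of a library did not come from a single animal alone, and the balance of the sexes was much alike within a genotype and differed between the genotypes. Whether the libraries of a genotype shared animals is not given in the sources used here. Their counts differed by more than sampling noise, with chi-square over degrees of freedom of 2.45 to 3.08 over the 6 pairs of Bbs8+/+ libraries and 1.87 to 2.4 over the 6 pairs of Bbs8-/- libraries, which preparation alone can also give. The SD, SE and FDR values therefore measure the spread between these libraries, which may be technical, and are not shown to cover the spread between animals.

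Each library held between 1636725 and 2884983 counts in genes, so that 3 counts corresponded to 1.04 to 1.83 CPM. The targeted gene Ttc8 was lower in each Bbs8-/- library (2.29 to 9.70 CPM) than in any Bbs8+/+ library (14.6 to 21.6 CPM), with a log2 fold change of -1.95 (SE 0.317, edgeR quasi-likelihood FDR 2.74e-06). Of 13813 genes tested, 152 rose and 157 fell in Bbs8-/- at an FDR of 0.05. The RPE markers summed to 17677 to 18710 CPM in Bbs8+/+ and 19136 to 19503 CPM in Bbs8-/-. Most of this sum was Ttr (10937 and 11657 CPM on average). Of the 10 markers, 8 had a log2 fold change above 0 and 2 below, Rpe65 (1998 and 1824 CPM) and Lrat (346 and 322 CPM). Past the threshold was 1, Otx2, which was higher (554 and 771 CPM). Markers of other cell types moved with genotype as well, and those counted as higher or lower passed the FDR threshold. Fibroblast and sclera markers summed to 29459 to 30859 CPM in Bbs8+/+ and 21499 to 22799 CPM in Bbs8-/-, with 3 of 10 lower and 1 higher. Pigment cell markers, which the choroid also expresses, summed to 14130 to 14830 CPM and 11708 to 12288 CPM, with 6 of 10 lower, while lens markers summed to 200 to 239 CPM and 464 to 504 CPM, with 7 of 10 higher. The part of these differences, and of the balance of the sexes, in the results that follow was not tested.

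The transcript starts of Meg3, Dlk1 and Peg3 are shown because 2 of these loci, Meg3 and Dlk1, are neighbours expressed from opposite parental alleles, and because Meg3 and Peg3 alone among the members with a window held the cyclic AMP response element TGACGTCA. Each stretch of 300 bases runs from 250 bases before to 50 bases after the start in RefSeq on GRCm38.p6, and capitals mark TGACGTCA and TATAAA on either strand. The windows are chr12:109540746-109541045 on the plus strand for Meg3, chr12:109452573-109452872 on the plus strand for Dlk1 and chr7:6730370-6730669 on the minus strand for Peg3.
Meg3: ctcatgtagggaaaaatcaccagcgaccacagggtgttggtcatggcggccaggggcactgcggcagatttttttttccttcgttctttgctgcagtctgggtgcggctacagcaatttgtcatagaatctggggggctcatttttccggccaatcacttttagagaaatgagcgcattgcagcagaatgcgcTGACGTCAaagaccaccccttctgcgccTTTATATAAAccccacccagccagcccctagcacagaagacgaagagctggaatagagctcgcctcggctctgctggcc
Dlk1: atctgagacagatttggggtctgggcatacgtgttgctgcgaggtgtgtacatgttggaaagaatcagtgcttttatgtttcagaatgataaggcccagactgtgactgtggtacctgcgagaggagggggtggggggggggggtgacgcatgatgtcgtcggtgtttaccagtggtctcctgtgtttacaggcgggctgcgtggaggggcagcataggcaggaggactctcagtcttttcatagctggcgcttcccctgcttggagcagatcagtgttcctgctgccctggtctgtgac
Peg3: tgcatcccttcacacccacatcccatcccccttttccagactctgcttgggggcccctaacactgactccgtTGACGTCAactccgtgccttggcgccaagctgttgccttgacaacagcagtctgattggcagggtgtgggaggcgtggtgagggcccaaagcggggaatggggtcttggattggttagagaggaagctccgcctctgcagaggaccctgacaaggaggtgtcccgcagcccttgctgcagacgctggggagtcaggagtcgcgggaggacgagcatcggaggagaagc

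TGACGTCA, which reads the same on both strands, was present in 1.79% of 32851 windows of this length, and TATAAA in 13.6%. In the Meg3 window TATAAA was matched on both strands by overlapping letters, downstream of TGACGTCA. Of the 10 members, 8 had a window in the RefSeq table, 12 windows in all, and H19 and Cdkn1c were not among them. The YY1 motif GCCATNTT was found in 6.05% of all windows and in none of a member, and the PLAGL1 motif in 0.0852% and in none of a member. A window of Grb10 held 45 CpG dinucleotides, that of Plagl1 26 and the printed window of Meg3 13, against a median of 7 over all windows. The window of Rian held 0.

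The 3′ ends of Meg3 and H19 are shown because this library method counts reads there. The last 60 bases are from GENCODE M21 transcripts, with the polyadenylation signal AATAAA in capitals.
Meg3: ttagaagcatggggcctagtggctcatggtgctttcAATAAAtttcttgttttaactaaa
H19: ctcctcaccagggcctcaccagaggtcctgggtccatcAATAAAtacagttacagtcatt

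The signal with the bases just before it lay within the last 60 bases of 4 of the 11 annotated Meg3 transcripts. The same held for 4 of 7 transcripts of H19. Counts per gene do not separate these isoforms.

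Meg3 and H19, both maternally expressed long noncoding RNAs, were the members past the threshold, and both were higher in Bbs8-/-. Meg3 is transcribed from the Dlk1-Dio3 imprinted cluster and is known as a restraint on proliferation. It lies on chromosome 12 at 109541001 to 109571726 of mm10 on the plus strand (ENSMUSG00000021268). The Bbs8+/+ libraries held Meg3 at 1304, 1294, 1397 and 1308 CPM, and the Bbs8-/- libraries held it at 1682, 1591, 1678 and 1779 CPM. The genotypes did not overlap, and the gap between them was wider than the whole range within Bbs8+/+. The means were 1326 ± 47.8 CPM and 1682 ± 76.9 CPM, a log2 fold change of 0.34 (SE 0.0451) or 26.9%. These levels rested on 2773 to 3810 counts of Meg3 in each library.

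H19, the maternally expressed partner of the growth factor gene Igf2 and host of a microRNA that restrains growth, lies on chromosome 7 at 142575529 to 142578143 on the minus strand (ENSMUSG00000000031). H19 was present at 1831, 1708, 2064 and 1844 CPM in Bbs8+/+ and at 2263, 2072, 2113 and 2393 CPM in Bbs8-/-. The genotypes did not overlap, but the highest Bbs8+/+ library and the lowest Bbs8-/- library were close. Mean levels were 1862 ± 148 CPM and 2210 ± 147 CPM, a log2 fold change of 0.25 (SE 0.0440) or 18.7%.

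**Figure D1:**
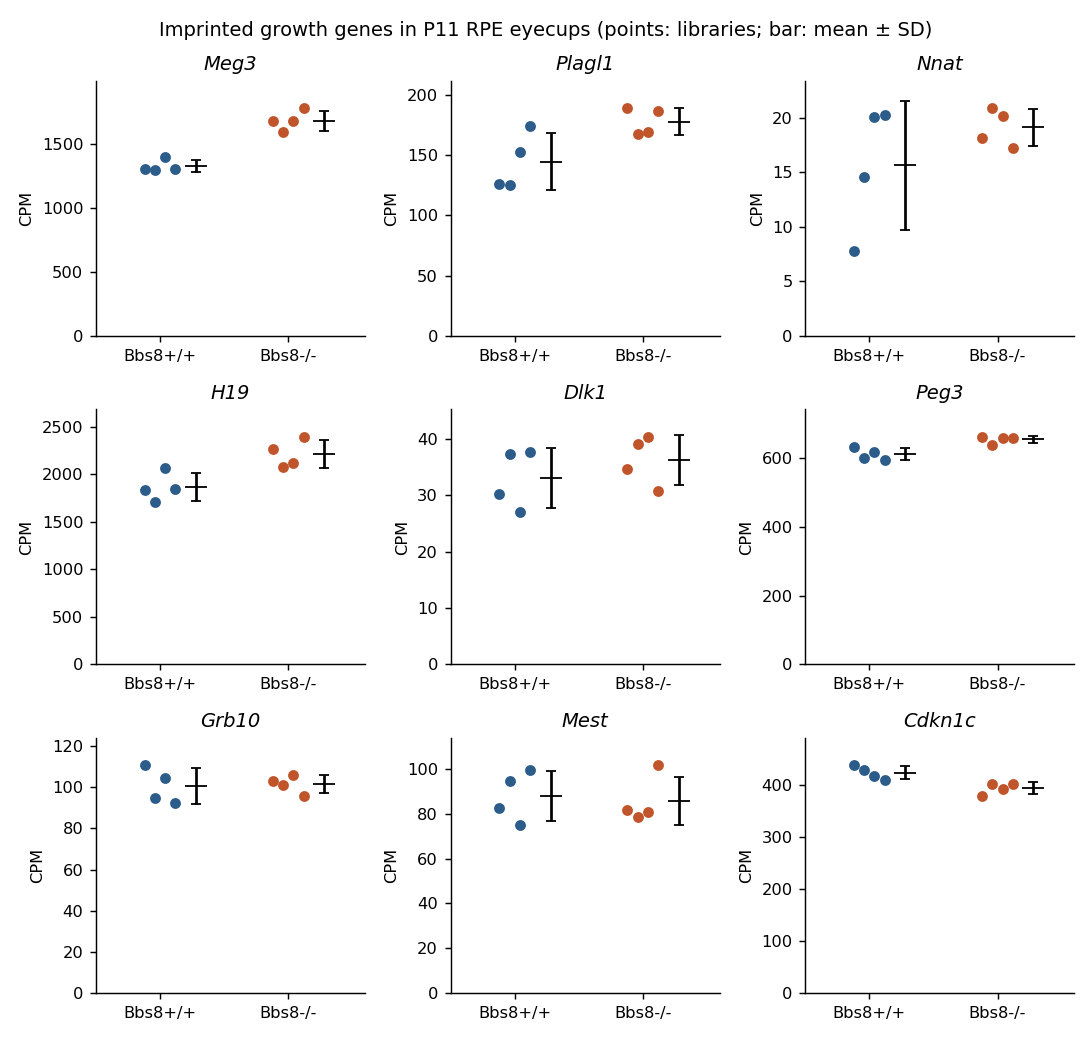
Level of the 9 members with a count row in each library, with CPM on the vertical axis of each panel starting at 0 and genotype on the horizontal axis; points are libraries and bars are mean ± SD (n = 4). The 4 Bbs8-/- points of Meg3 (1591 to 1779 CPM) and of H19 (2072 to 2393 CPM) lie above all Bbs8+/+ points, while those of Grb10 and Mest overlap.

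Plagl1, a paternally expressed zinc finger transcription factor known to act on other imprinted genes, including H19, lies on chromosome 10 at 13060504 to 13131694 on the plus strand (ENSMUSG00000019817). Its values were 125.8, 125.4, 152.7 and 173.8 CPM in Bbs8+/+ and 188.6, 167.1, 168.8 and 186.3 CPM in Bbs8-/-. The fourth Bbs8+/+ library lay within the range of Bbs8-/-, and the spread was wider in Bbs8+/+. The means were 144 ± 23.4 CPM and 178 ± 11.3 CPM, with a log2 fold change of 0.29 (SE 0.0885) that did not pass the threshold. Without that Bbs8+/+ library the log2 fold change was 0.40 and passed it. Plagl1 passed in 6 of 16 alternative analyses, so its place relative to the threshold rested on the processing.

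Dlk1 encodes a transmembrane and secreted inhibitor of adipocyte differentiation and is expressed from the paternal allele of the same cluster as Meg3, at 109452823 to 109463336 on chromosome 12 (ENSMUSG00000040856). It was detected at 30.2, 37.4, 27.1 and 37.7 CPM in Bbs8+/+ and at 34.6, 39.2, 40.4 and 30.8 CPM in Bbs8-/-. The genotypes overlapped over most of their range. The means of 33.1 ± 5.29 CPM and 36.2 ± 4.38 CPM gave a log2 fold change of 0.12 (SE 0.169), an error wide enough to hold the difference seen for Meg3 as well as none. With single libraries left out it ranged from 0.044, without the third Bbs8+/+ library, to 0.198, without the fourth Bbs8-/- library.

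Rian, a maternally expressed noncoding RNA downstream of Meg3 that hosts small nucleolar RNAs, lies at 109603940 to 109661716 on chromosome 12 (ENSMUSG00000097451). GENCODE M21 gives it the type processed transcript, and 10 of the 790 genes of that type had a row in the count tables. Its level was therefore not analysed here. Reads that the counting assigned to no feature, where reads of a gene without a row would fall, need not lie outside genes. Of the reads assigned to a gene plus those assigned to none, they made up 42.3% to 43.5% in Bbs8+/+. In Bbs8-/- they made up 44.3% to 44.5%. Mirg, the maternally expressed host of microRNAs at the far end of the same cluster, was at 30.3 ± 4.78 CPM in Bbs8+/+ and 33.1 ± 5.37 CPM in Bbs8-/- (log2 fold change 0.13, SE 0.178, edgeR FDR 0.843). Rtl1, a paternally expressed retrotransposon-derived gene of the cluster, was at 3.66 ± 0.861 CPM and 3.82 ± 1.86 CPM (edgeR FDR 0.974), and Dio3 was too low to be tested.

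Meg3, Dlk1 and Rian share chromosome 12 with the disrupted gene Ttc8. Meg3 lies 10.6 Mb from Ttc8, and 13 of the 481 tested genes of the chromosome (2.70%) passed the threshold, against 2.24% of all genes. Within 5 Mb of Ttc8 the genes past it were Ttc8 itself and the proteasome ATPase gene Psmc1, 2 of 44 tested. Psmc1, 1.16 Mb away, rose from 275 ± 10.8 CPM to 345.5 ± 30.5 CPM (log2 fold change 0.33, SE 0.0686, edgeR FDR 0.000663). Between 5 and 10 Mb none of 32 genes passed the FDR threshold. Between 10 and 20 Mb 6 of 165 did, Meg3 among them, and beyond 20 Mb 5 of 240. Within 2 Mb of Meg3, 36 genes were tested and Meg3 alone passed.

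**Figure D2:**
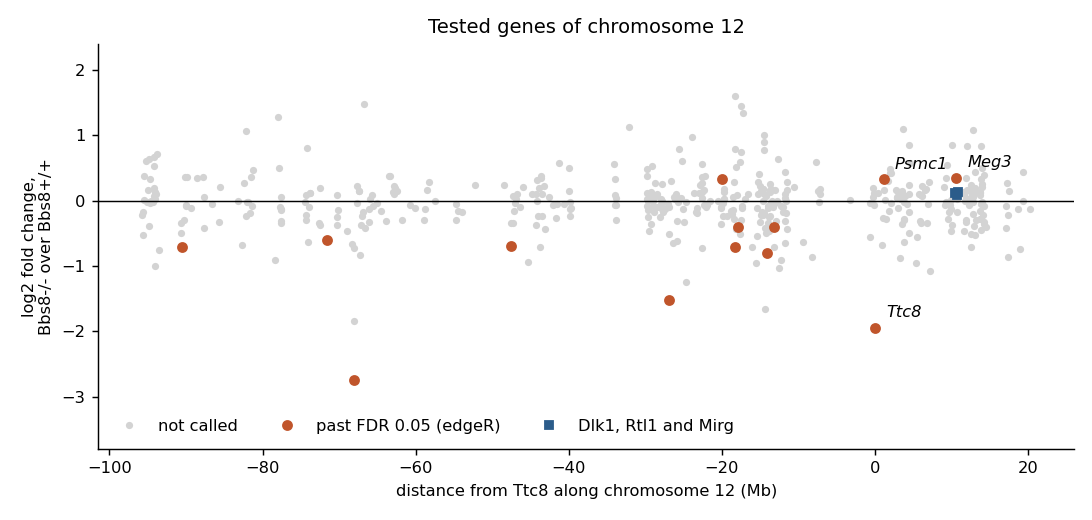
Log2 fold change (Bbs8-/- over Bbs8+/+, vertical axis) of each of the 481 tested genes of chromosome 12 against distance from Ttc8 in Mb (horizontal axis), with genes past FDR 0.05 in orange and Dlk1, Rtl1 and Mirg as blue squares. Meg3 is higher by 0.34 at 10.6 Mb, and no other gene within 2 Mb of it passed the threshold.

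Peg3, a paternally expressed zinc finger gene tied to maternal behaviour and growth, lies on chromosome 7 at 6703892 to 6730431 on the minus strand (ENSMUSG00000002265). It was at 632, 600, 617 and 594 CPM in Bbs8+/+ and at 660, 637.5, 657 and 656.5 CPM in Bbs8-/-. All Bbs8-/- libraries were above all Bbs8+/+ libraries. The difference was small, from 610.8 ± 17.3 CPM to 653 ± 10.4 CPM or 6.90%, and the log2 fold change of 0.10 (SE 0.0549) did not pass the threshold. The neighbouring imprinted genes Usp29 (log2 fold change 0.19, edgeR FDR 0.875) and Zim1 (-0.13, edgeR FDR 0.864) did not pass either.

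Cdkn1c, the maternally expressed cyclin-dependent kinase inhibitor p57, was the member with the opposite order. It lies on chromosome 7 at 143458339 to 143461050 on the minus strand (ENSMUSG00000037664). Its values were 437, 429, 416.5 and 409 CPM in Bbs8+/+ and 379, 402, 391 and 402 CPM in Bbs8-/-. Every Bbs8-/- library was below every Bbs8+/+ library, and the mean went from 423 ± 12.6 CPM to 394 ± 11.0 CPM, which is -6.95%. The log2 fold change of -0.10 (SE 0.0620) did not pass the threshold.

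Kcnq1ot1, the paternally expressed antisense RNA whose transcription silences Cdkn1c on the paternal chromosome, was at 605, 677, 650.5 and 622 CPM in Bbs8+/+ and at 560, 585, 564.5 and 542 CPM in Bbs8-/-. The genotypes did not overlap, with means of 638.5 ± 31.6 CPM and 563 ± 17.9 CPM. The log2 fold change of -0.18 (SE 0.0562) missed the threshold (edgeR FDR 0.0612). Kcnq1ot1 overlaps Kcnq1 on the opposite strand, and whether reads were counted by strand is not given in the sources used here. Of the other genes of that domain, Slc22a18 (log2 fold change -0.42, edgeR FDR 0.769), Kcnq1 (-0.11, edgeR FDR 0.954), Tssc4 (-0.083, edgeR FDR 0.903) and Cd81 (0.011, edgeR FDR 0.974) did not pass.

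Igf2, which shares enhancers with H19 and encodes a fetal growth factor, was at 28.9, 25.9, 25.7 and 17.5 CPM in Bbs8+/+ and at 33.4, 28.7, 24.3 and 16.8 CPM in Bbs8-/-. The means were 24.5 ± 4.91 CPM and 25.8 ± 7.04 CPM, with a log2 fold change of 0.068 (SE 0.204, edgeR FDR 0.937). The spread of Igf2 was too wide at this level for a difference of the size seen for H19 to be shown. Ins2, on the far side of Igf2, had a log2 fold change of -0.14 (edgeR FDR 0.874).

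The remaining members were Grb10, Mest and Nnat. Grb10, a maternally expressed adaptor that dampens insulin and growth factor signalling, lies on chromosome 11 at 11930508 to 12038683 on the minus strand (ENSMUSG00000020176). It was at 110.7, 94.8, 104.6 and 92.5 CPM in Bbs8+/+ and at 103.1, 101.3, 105.9 and 95.7 CPM in Bbs8-/-, ranges that overlapped. The means were 100.6 ± 8.53 CPM and 101.5 ± 4.31 CPM, with a log2 fold change of 0.015 (SE 0.103) whose sign turned when single libraries were left out. Its neighbour Ddc had a log2 fold change of -0.37 (edgeR FDR 0.441).

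Mest, a paternally expressed gene of the hydrolase fold family linked to adipocyte size, lies on chromosome 6 at 30723547 to 30748465 on the plus strand (ENSMUSG00000051855). Mest transcripts stood at 82.7, 94.8, 75.2 and 99.8 CPM in Bbs8+/+ and 81.9, 78.8, 80.7 and 101.8 CPM in Bbs8-/-. The means of 88.1 ± 11.2 CPM and 85.8 ± 10.7 CPM gave a log2 fold change of -0.04 (SE 0.112), and its sign also turned on single libraries. Mest overlaps Copg2 on the opposite strand (log2 fold change -0.15, edgeR FDR 0.747), which leaves both uncertain without the strand setting.

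Nnat, a paternally expressed proteolipid that lies within Blcap on the opposite strand, is on chromosome 2 at 157560078 to 157562522 (ENSMUSG00000067786). It was the least abundant member by counts, with 18 to 58 in each library. Its values were 7.75, 14.5, 20.1 and 20.2 CPM in Bbs8+/+ and 18.2, 20.9, 20.2 and 17.3 CPM in Bbs8-/-. The first and the second Bbs8+/+ library lay below all Bbs8-/- libraries, and the third and the fourth lay within their range. The means were 15.7 ± 5.90 CPM and 19.1 ± 1.68 CPM, with a log2 fold change of 0.28 (SE 0.241). It was 0.070 without the first Bbs8+/+ library, 0.45 without the fourth and 0.066 after thinning all libraries to the smallest total. Blcap had a log2 fold change of -0.12 (edgeR FDR 0.839).

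Over the 9 members tested, 7 log2 fold changes were above 0 and 2 below, with a median of 0.12 against -0.0041 over all genes tested. Past the threshold were 2 higher and 0 lower, where 1.10% of all genes were called higher and 1.14% lower. The genotypes did not overlap for 3 members that were higher and 1 that was lower, where 3.62% and 3.76% of all genes did so (7.38% in either direction). As the set was chosen from results of this contrast, nothing is read from these counts. By parent of origin, the 4 maternally expressed members had a median log2 fold change of 0.13 with 2 past the threshold, and the 5 paternally expressed members a median of 0.12 with 0. All 9 members together amounted to 4398 to 4874 CPM in the Bbs8+/+ libraries and to 5110 to 5662 CPM in those of Bbs8-/-, of which Meg3 and H19 made up the larger part.

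**Figure D3:**
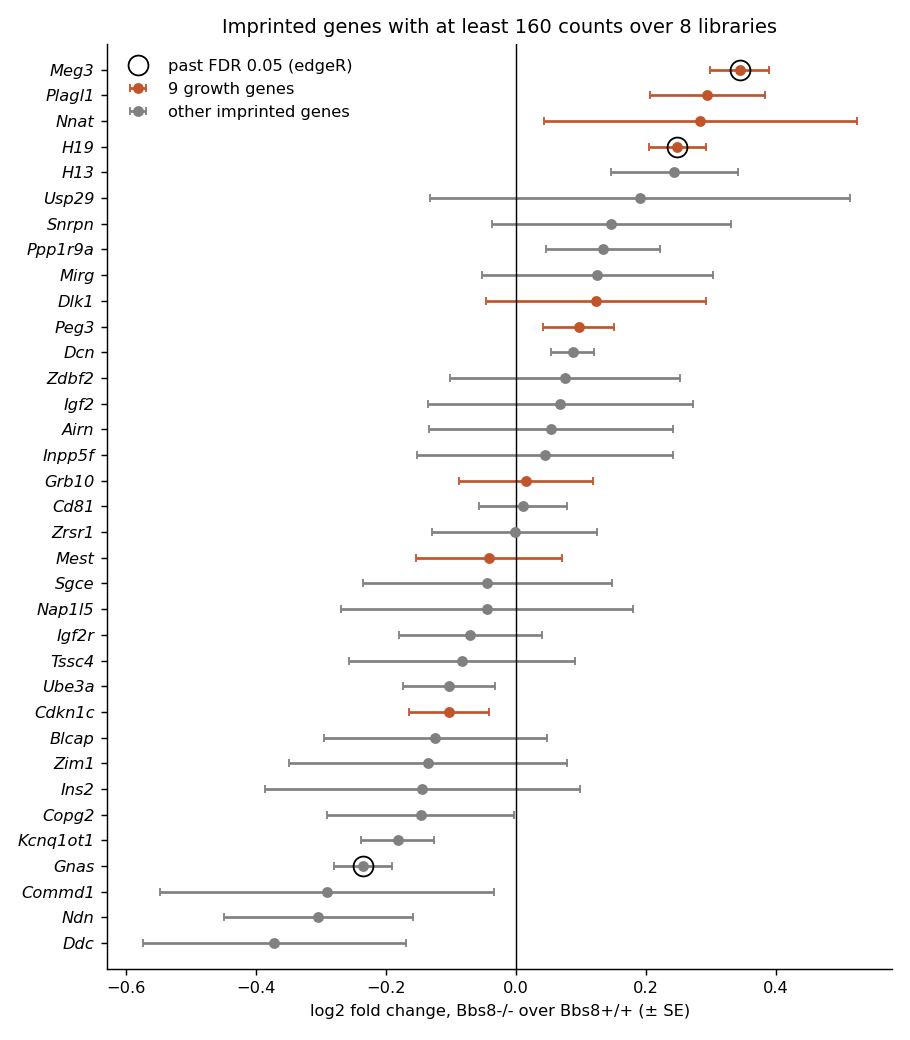
Log2 fold change (Bbs8-/- over Bbs8+/+, horizontal axis, ± SE) of the more abundant imprinted genes, with members in orange, other imprinted genes in grey and circles for those past FDR 0.05. Meg3 (0.34) and H19 (0.25) lie to the right with short error bars, and Gnas (-0.24) is the circled gene on the left.

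A list of 43 other imprinted genes was read beside the members. Of these, 36 passed the filter on low counts, with 15 log2 fold changes above 0 and 21 below, a median of -0.035 and a range of -0.87 to 0.55. None rose and 1 fell at the FDR threshold in edgeR, where 1.10% and 1.14% of all genes did so, and these counts in 36 genes were near that background. An unadjusted p under 0.05 was reached by 5 genes, against 1792 of all 13813. The 14 tested genes that share a locus with a member had a median of -0.12, and none passed. The genotypes did not overlap for H13 and Dcn, which were higher without passing the test (edgeR FDR 0.223 and 0.174), and for Kcnq1ot1, Ndn (edgeR FDR 0.351) and Gnas, which were lower. These are 5 of 36 genes, against 7.38% of all genes tested.

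The gene that fell was Gnas, which encodes the stimulatory G protein alpha subunit and is expressed from the maternal allele in some tissues. It was at 1881, 1974, 1944 and 1736 CPM in Bbs8+/+ and at 1735, 1494, 1593 and 1579 CPM in Bbs8-/-. The lowest Bbs8+/+ library and the highest Bbs8-/- library nearly met. The means were 1884 ± 106 CPM and 1600 ± 99.9 CPM, with a log2 fold change of -0.24 (SE 0.0446, edgeR FDR 9.63e-05). Transcripts of the locus that start at different promoters share their 3′ exons, and counts per gene do not separate them.

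**Figure D4:**
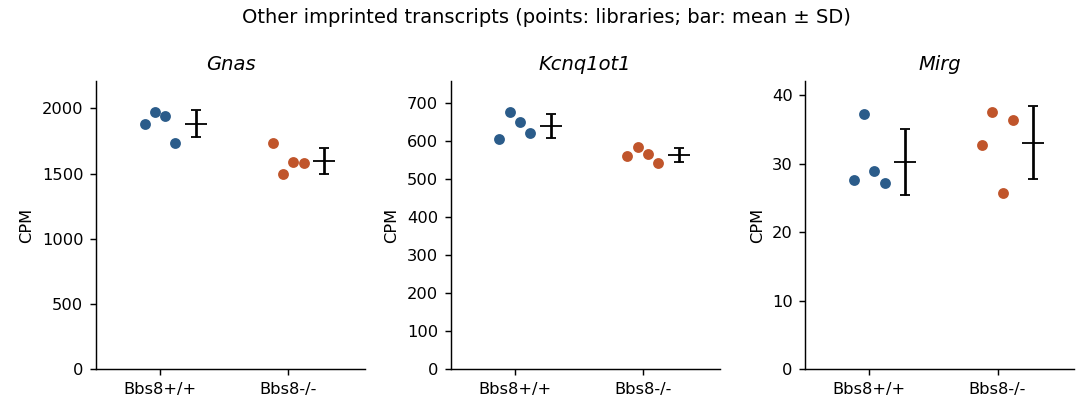
Level of Gnas, Kcnq1ot1 and Mirg in each library, with CPM on the vertical axes starting at 0, genotype on the horizontal axes, points for libraries and bars for mean ± SD (n = 4). Gnas and Kcnq1ot1 lie lower in all 4 Bbs8-/- libraries (Gnas 1494 to 1735 CPM), and Mirg overlaps between the genotypes.

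The members differed in how tightly the libraries of a genotype lay together. The biological coefficient of variation, the spread between libraries beyond counting error, was estimated in edgeR, which draws each gene towards the trend at its level. The estimate was 5.70% for Meg3, 5.94% for H19, 5.87% for Peg3 and 6.09% for Cdkn1c. In Bbs8+/+ the observed SD differed more, at 148 CPM around 1862 CPM for H19 and 17.3 CPM around 610.8 CPM for Peg3. Among the 1000 genes nearest in level these estimates stood at percentiles 2.7, 6.8, 3.5 and 9.3. Such percentiles can follow the trend with level, so they do not rank the spread of each gene itself. Plagl1 (7.60%, percentile 67.2), Grb10 (8.0%, percentile 31.4) and Mest (8.72%, percentile 52.1) had higher estimates. Dlk1 (12%, percentile 42.2) and Nnat (17.2%, percentile 69.6) had the highest estimates of the 9.

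Within genotypes, Meg3 and H19 varied together over the libraries. Over the 8 deviations from the genotype means of log2 CPM, Pearson's r was 0.901 and Spearman's rho 0.881, with r = 0.942 in Bbs8+/+ and 0.903 in Bbs8-/-. The third Bbs8+/+ and the fourth Bbs8-/- library were the highest of their genotype for both, and without these 2 libraries r was 0.607. The points share the library and its scaling, and 36 pairs of members were compared, with a median absolute r of 0.333. Dlk1 deviated in the opposite direction to H19 (r = -0.870, rho = -0.690, or r = -0.596 without the 2 farthest libraries) and to Meg3 (r = -0.768, or -0.222). Peg3 and Grb10 deviated together (r = 0.793, rho = 0.810, or r = 0.835 without the 2 farthest libraries), with r = 0.997 in Bbs8+/+ and 0.0884 in Bbs8-/-. Mest and Grb10 deviated in opposite directions (r = -0.811, rho = -0.714, or r = -0.628), as did Plagl1 and Cdkn1c (r = -0.754, rho = -0.690, or r = -0.675).

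H19 ranked 16 by r with Meg3 among 6625 genes of at least 20 CPM. The genes with the most similar deviations to those of Meg3 were Arpc4 (r = 0.975), Zswim8 (0.951), Creb3 (0.950), Dhx15 (0.935) and Cnot1 (0.933), over the same 8 libraries. None of these 5 passed the test between genotypes (edgeR FDR 0.107 to 0.832).

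**Figure D5:**
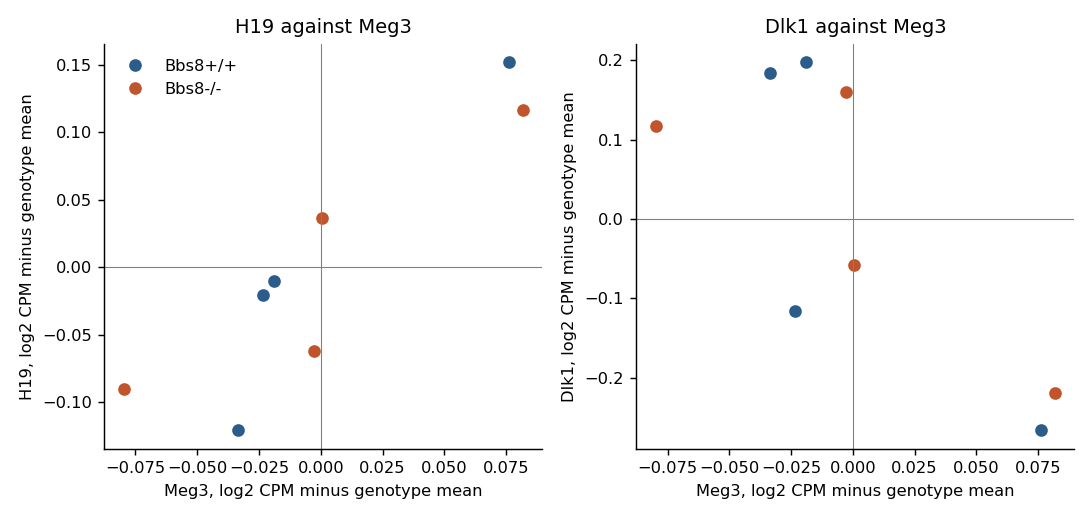
Deviation of log2 CPM from the genotype mean for H19 (left, vertical axis) and Dlk1 (right, vertical axis) against that of Meg3 (horizontal axes), with a point for each of the 8 libraries coloured by genotype. The 2 libraries furthest to the right, at 0.08 for Meg3, are the highest for H19 and the lowest for Dlk1.

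Several members are also expressed by cells other than the RPE, and marker lists for these were read beside them, where higher and lower count markers past the FDR threshold. Skeletal muscle, in which H19 and Meg3 are abundant, had 10 markers that summed to 1589 to 1751 CPM in Bbs8+/+ and 1756 to 1952 CPM in Bbs8-/-, with a median log2 fold change of 0.12. Of these markers 7 had a log2 fold change above 0 and 3 below, and those past the threshold were Myh8 and Tnnc2, both higher. Of 8 markers of muscle progenitors, 3 were tested and none passed, and 4 of them, Myf5, Myod1, Chrng and Cdh15, had at most 3 counts in every library. Pericyte markers summed to 1294 to 1336 CPM and 1129 to 1214 CPM, with 2 of 8 lower. Endothelial markers, with 1 of 10 higher, summed to 944 to 984 CPM and 949.7 to 1032 CPM. Markers of Schwann cells and glia summed to 632 to 713 CPM and 503 to 555 CPM, with 3 of 8 lower and 1 higher, and photoreceptor markers to 501 to 548 CPM and 405 to 463 CPM, with 2 of 10 lower. The summed level was higher for muscle and lower for fibroblasts in all Bbs8-/- libraries. The fibroblast sum was made mostly of the collagen genes Col1a1 (11698 and 8737 CPM on average in Bbs8+/+ and Bbs8-/-) and Col1a2 (15096 and 10294 CPM). Of the 10 fibroblast markers, 7 had a log2 fold change below 0 and 3 above. Col3a1 also passed the threshold downward (-0.21, edgeR FDR 0.00017). Those above 0 were Thy1 (15.1 and 25.3 CPM), which passed the threshold, and Lum (128.6 and 140.4 CPM) and Dpt (24.8 and 24.9 CPM), which did not. Dcn, which is on the list of imprinted genes and not on that of fibroblast markers, was at 5884 and 6250 CPM. The part of these cell types in the differences of Meg3 and H19 was not tested.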

How the data were processed

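Single-end QuantSeq 3′ mRNA libraries were deposited as counts per gene, not normalized, of reads with a unique alignment. The authors had trimmed the reads with BBDuk, aligned them with STAR to mm10 and counted them with htseq-count. Whether counting used strand is not given in the sources used here. Of the 31053 gene rows, 31011 matched GENCODE M21. Summary lines for reads not assigned to a gene were left out of library sizes, and 0 pairs of files were identical. Each library held transcripts of both sexes, so libraries were not taken as single animals, and p-values cover the spread between libraries.

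The members and lists were chosen with earlier results of these data known. Genes that reached 1 CPM in 4 or more libraries were fitted together in edgeR 4.0.16 (R 4.3.3), with TMM factors, genotype as the only term and the quasi-likelihood test. P-values were two-sided and adjusted by the Benjamini-Hochberg method over all 13813 genes, with a threshold of FDR 0.05. SE is the SE of the log2 fold change. The procedure was tested on simulated counts. A limit of 3 counts covers counting error only.

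The named genes were the members, Ttc8, other imprinted genes past the threshold or at a member's locus, genes past the threshold within 10 Mb of Ttc8 or 2 Mb of Meg3, and the 5 genes most like Meg3. H13, Dcn, Ndn and the marker genes were named after their values were seen. Promoter windows came from RefSeq. Alternatives were RLE factors, total counts, other filters, DESeq2 1.42.0, a replicate block, thinned libraries, omission of Gm42418 and mitochondrial genes, and each library left out in turn.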

Additional observations from a re-analysis of the deposited data

Results flagged for a closer look

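Among groups of 4 libraries of the named genes, 4 of 50 held a library apart from the other three by Dixon's criterion at the 95% level, where chance gives about 1 in 20, or 2.5. Meg3 in the third Bbs8+/+ library was 1397 CPM, against 1294 to 1308 CPM in the rest of its genotype. Mest in the fourth Bbs8-/- library was 101.8 CPM, against 78.8 to 81.9 CPM. Mirg in the second Bbs8+/+ library was 37.4 CPM, against 27.2 to 28.9 CPM, and Blcap in the third Bbs8-/- library was 46.8 CPM, against 27.7 to 30.3 CPM. The Meg3 library stood apart towards the level of Bbs8-/-.

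Reads that the counting assigned to no feature, which no gene comparison used, need not lie outside genes. Of the reads assigned to a gene plus those assigned to none, they were 42.8% ± 0.545 (SD, n = 4) in Bbs8+/+. The share in Bbs8-/- was 44.4% ± 0.122 (SD, n = 4). All 4 Bbs8-/- libraries were above all Bbs8+/+ libraries (two-sided exact permutation p = 0.0286, the smallest that 4 against 4 allows). The test takes the libraries as exchangeable, and as each held RNA of both sexes they are not shown to be independent animals. Where these reads lie was not analysed here.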

How the results depend on the processing

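Meg3 and H19 passed FDR 0.05 in 16 of 16 alternatives, with log2 fold changes of 0.317 to 0.373 and 0.208 to 0.301. The members were chosen with this contrast known and the alternatives reuse the same libraries. Their calls here therefore describe the dependence on processing and are no further evidence of a difference. Gnas passed in 16 of 16 with -0.271 to -0.201 (FDR 1.44e-05 to 0.0064). The number of members past the threshold was 2 or 3, the third being Plagl1 (0.234 to 0.404), which passed with RLE factors, with filterByExpr, with no filter, without Gm42418 and mitochondrial genes, and without the third or the fourth Bbs8+/+ library. With total counts only, 2 other imprinted genes passed, Gnas and Kcnq1ot1 (FDR 0.0459). DESeq2 called 104 genes lower. Leaving out each library in turn gave 114 to 172 genes higher and 101 to 150 lower, a median of the members of 0.0836 to 0.198 and a median of the other imprinted genes of -0.0759 to -0.0128, which was -0.0031 after thinning. Signs turned for Mest (-0.137 to 0.028), Grb10 (-0.023 to 0.068), Rtl1 (-0.215 to 0.299), Igf2 (-0.072 to 0.233), Ins2 (-0.308 to 0.0088), Kcnq1 (-0.377 to 0.109) and Cd81 (-0.042 to 0.045) when single libraries were left out, and after thinning for Rtl1 (-0.112) and Blcap (0.067). With single libraries left out, values of other imprinted genes that moved by over 1.5 times without a change of sign were those of Slc22a18 (-0.938 to -0.147), Usp29 (0.010 to 0.552), Zim1 (-0.223 to -0.037), Mirg (0.062 to 0.248), Ddc (-0.576 to -0.168), Copg2 (-0.215 to -0.059), Tssc4 (-0.164 to -0.024) and Blcap (-0.344 to -0.030), none of which passed the threshold. Among the members, Dlk1 (0.044 to 0.198) and Nnat (0.070 to 0.446) moved as much with their sign kept, and neither passed. The cause was not tested. The median of all genes stayed between -0.0131 and 0.0066. Dlk1 and Nnat were limited by depth and spread, and no difference of the size of that of Meg3 could be shown for them.

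Same-numbered libraries of the genotypes did not deviate together (r = 0.02, 0.003, -0.05 and -0.056 over 6626 genes), so no pairing by number was seen. As the spread between libraries may be technical, this check cannot exclude such pairing. With the replicate block, 134 genes were higher and 129 lower, 2 members and 1 other imprinted gene passed, and the median of the members was 0.127.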
